A study of Mus musculus with 6 samples.

Results

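The transcripts described here are assembled noncoding isoforms of loci that also hold transcripts listed as mRNA. They carry an identifier made during transcript assembly (MERGE), stand in the lncRNA table, and share their assembled locus with at least 1 transcript of the mRNA table. Of 3018 such transcripts, 2620 reached 0.5 FPKM (a fragment count scaled by transcript length and library size) in at least 3 of the 6 mice and were kept, while 398 were not. They make up 2620 of the 23640 lncRNA-table transcripts that passed the same minimum and of 58844 transcripts in all. They lie in 1497 loci, 12.2% of the 12255 loci with an mRNA transcript, and 1427 of these loci hold a single gene symbol. The isoform closest to the minimum, MERGE.41589.1, had a third-highest value of 0.502 FPKM, and the nearest one left out, MERGE.48693.1, had 0.499 FPKM.

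RNA came from the prefrontal cortex (PFC) of 3 mice after repeated social defeat (RSD) and 3 control mice, all male C57BL/6 animals aged 6 to 8 weeks. In RSD an aggressive CD-1 intruder is placed repeatedly in the home cage of a cohort of 3 mice. Control mice were left undisturbed in another cage and room, so RSD cannot be told apart from cage or room. RSD mice that entered the experiment had shown anxiety-like behavior on the elevated plus maze, and libraries were depleted of ribosomal RNA and kept the strand. Nothing in the labels says more on how the 3 mice of a group relate, and p-values measure the spread between these mice only.

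A protein-coding gene also gives rise to transcripts with no long open reading frame, through skipped or retained exons, early ends or later starts. Some are degraded by nonsense-mediated decay, some stay in the nucleus, and some use up splicing events that would otherwise yield mRNA. Neurons, with long and heavily spliced genes for synaptic and cytoskeletal proteins, are known for a large number of such isoforms. Because such isoforms can share exons with the mRNA, short reads are assigned among them by a statistical split of the fragments of a locus.

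The kept isoforms lay almost wholly on 1 strand of the genome. Of the 2620, 2455 (93.7%) were on the minus strand and 165 on the plus strand. Among the 398 that missed the minimum the minus-strand percentage was 92.7%, against 57.9% of 1414 assembled transcripts in other loci, 52.0% of 3710 NONCODE or Ensembl lncRNA transcripts in mRNA loci and 49.1% of 32870 mRNA transcripts. A member was found in 1391 of 6096 minus-strand mRNA loci (22.8%) and in 106 of 6159 plus-strand mRNA loci (1.72%). On 20 chromosomes (the autosomes and X) the minus-strand percentage ran between 71.6% and 98.4%. The mRNA table held 0 assembled transcripts, so every assembled isoform of an mRNA locus in these files stands in the lncRNA table. The coding-potential scores and transcript sequences were not used here, and whether the noncoding classification itself depended on strand was not tested.

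**Figure D1:**
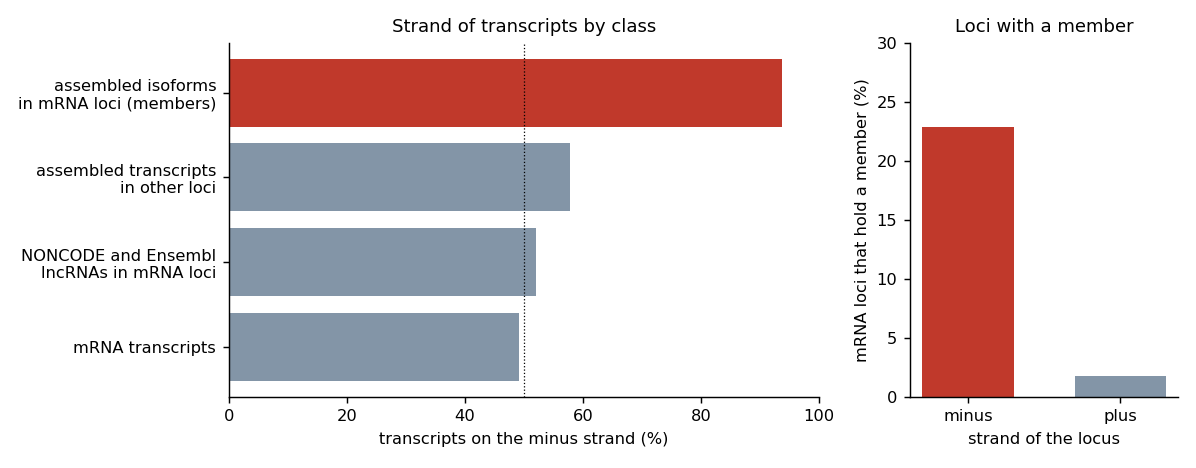
Left, percentage of transcripts on the minus strand in 4 classes, with a dotted line at an even split. Right, percentage of mRNA loci on each strand that hold at least 1 kept assembled isoform, 22.8% on the minus strand against 1.72% on the plus strand.

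Most isoforms had a long genomic span and shared an end with an mRNA of their locus. The median genomic span was 44468 bases (quartiles 16412 and 115049), against 2302 bases for the NONCODE and Ensembl transcripts of mRNA loci. A start within 50 bases of an mRNA start of the same locus was found for 1117 isoforms (42.6%), against 8.46% of the NONCODE and Ensembl transcripts, and an end within 50 bases of an mRNA end for 1497 isoforms (57.1%), against 18.8%. Both ends were shared by 725 isoforms (27.7%) and neither end by 731 (27.9%). Both ends were shared by 28.6% of minus-strand isoforms and 13.9% of plus-strand isoforms, a difference that was not tested.

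The host promoter was checked with RefSeq sequence of GRCm38.p6, since 99.9% of 31440 mRNA transcripts matched by symbol overlapped the RefSeq gene of that build. Of 1992 isoforms whose host had a promoter window (250 bases before to 50 bases after the RefSeq start), 594 (29.8%) began inside it. The windows of 4 loci taken up in the comparisons are printed here, since they show where the noncoding isoform starts relative to a RefSeq start of its host gene. Lower case is upstream of the isoform, and capitals are the bases inside its span. MERGE.25558.3 began at the RefSeq start of Gabpb1 (offset 0) and MERGE.43656.3 began 17 bases after that of Cc2d1a. The offsets of MERGE.16709.3 in Etv5 and MERGE.43969.3 in Slc38a7 were -73 and -14 bases, before the RefSeq start. In each of these 4 loci an mRNA transcript began upstream of the isoform. On the minus strand the Etv5 mRNA ENSMUST00000079601 began at position 22439719 and MERGE.16709.3 at 22438441, inside the span of that mRNA.
Etv5 promoter, chr16:22438319-22438618, minus strand: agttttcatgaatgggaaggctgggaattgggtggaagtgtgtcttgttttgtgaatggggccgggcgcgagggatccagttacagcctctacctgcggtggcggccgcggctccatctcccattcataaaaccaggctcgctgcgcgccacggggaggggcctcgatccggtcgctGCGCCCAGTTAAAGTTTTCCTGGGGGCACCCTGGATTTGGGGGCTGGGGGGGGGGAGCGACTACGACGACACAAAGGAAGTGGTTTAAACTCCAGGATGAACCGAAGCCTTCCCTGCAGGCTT
Gabpb1 promoter, chr2:126675303-126675602, minus strand: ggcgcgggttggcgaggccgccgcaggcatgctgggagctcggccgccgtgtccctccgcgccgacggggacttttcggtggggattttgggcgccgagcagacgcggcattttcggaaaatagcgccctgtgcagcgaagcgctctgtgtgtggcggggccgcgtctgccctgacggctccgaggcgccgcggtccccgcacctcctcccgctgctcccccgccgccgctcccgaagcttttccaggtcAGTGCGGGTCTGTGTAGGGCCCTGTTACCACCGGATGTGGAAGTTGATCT
Cc2d1a promoter, chr8:84147868-84148167, minus strand: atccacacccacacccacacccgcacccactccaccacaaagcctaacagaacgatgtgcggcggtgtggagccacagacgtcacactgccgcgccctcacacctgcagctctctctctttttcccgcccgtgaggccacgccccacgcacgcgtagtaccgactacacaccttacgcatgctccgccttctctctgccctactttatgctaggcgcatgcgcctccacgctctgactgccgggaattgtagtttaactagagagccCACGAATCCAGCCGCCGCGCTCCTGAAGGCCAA
Slc38a7 promoter, chr8:95853442-95853741, minus strand: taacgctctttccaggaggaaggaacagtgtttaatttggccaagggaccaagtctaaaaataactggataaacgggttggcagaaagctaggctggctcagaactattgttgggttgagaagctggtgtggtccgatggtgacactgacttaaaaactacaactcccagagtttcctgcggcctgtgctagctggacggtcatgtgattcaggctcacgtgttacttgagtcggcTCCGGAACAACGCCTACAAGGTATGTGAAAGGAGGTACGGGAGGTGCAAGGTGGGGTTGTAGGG

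The isoforms were not rare transcripts. Their median level (mean of the 6 mice) was 3.05 FPKM, with quartiles of 1.74 and 5.55 FPKM, against 1.88 FPKM for the NONCODE and Ensembl transcripts of mRNA loci, 2.27 FPKM for assembled transcripts elsewhere and 1.58 FPKM for mRNA transcripts. A level above 10 FPKM was reached by 225 isoforms (8.59%).

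Outside the mitochondrial genome the highest level belonged to MERGE.5021.3 in the locus of Syt1, the calcium sensor of synaptic vesicle fusion (chr10:108497654-109010962). It had 169, 176 and 151 FPKM in RSD mice, against 162, 116 and 109 FPKM in control mice, so that the groups overlapped (log2 fold change 0.38 ± 0.19 SE, adjusted p = 0.932, limma). MERGE.7392.6 of Cltc, the clathrin heavy chain, had 96.6, 96.1 and 90.8 FPKM in RSD mice and 107, 82.1 and 42.2 FPKM in control mice, and made up 55.4% of its locus. MERGE.16598.1 of the septin gene Sept5 had 89.6, 91.8 and 64.3 FPKM in RSD mice and 91.7, 57.6 and 65.0 FPKM in control mice, or 87.2% of its locus. MERGE.13244.2 of Ndrg2, an astrocyte gene, had 67.5, 62.9 and 61.6 FPKM in RSD mice and 65.6, 52.8 and 51.0 FPKM in control mice. None of the 10 isoforms with the highest level passed the test, the smallest adjusted p among them being the 0.932 of MERGE.5021.3.

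Other abundant isoforms swung between mice of the same group. MERGE.40818.247 of Snrpn had 115, 65.8 and 64.2 FPKM in RSD mice and 201, 48.3 and 17.2 FPKM in control mice. MERGE.1478.9 of Kif1a, a kinesin that carries synaptic vesicle precursors, had 54.0, 69.8 and 118 FPKM in RSD mice and 6.64, 103 and 104 FPKM in control mice. MERGE.15957.1 of Nell2, a secreted neuronal glycoprotein, had 96.8, 76.0 and 14.8 FPKM in RSD mice and 109, 62.5 and 71.8 FPKM in control mice. MERGE.26400.10 was one of the few plus-strand members. It belongs to Snhg11, a small nucleolar RNA host gene whose locus is included because 4 of its transcripts are listed as mRNA. MERGE.26400.10 had 87.8, 33.8 and 88.7 FPKM in RSD mice against 61.0, 96.7 and 33.9 FPKM in control mice. Larger swings were seen on the mitochondrial genome, where MERGE.47660.1 had 771, 2451 and 97.8 FPKM in RSD mice and 66.6, 35.5 and 2102 FPKM in control mice. MERGE.47660.10 was listed at 0 in RSD mice 1 and 3 and at 461 FPKM in RSD mouse 2, against 0.544, 48.6 and 0 FPKM in control mice.

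The same instability ran through the set. On the log2(FPKM + 0.1) scale the SD between mice of a group had a median of 0.72 for the 2620 isoforms, against 0.52 for the 4803 mRNA transcripts of the same loci and 0.36 for the NONCODE and Ensembl transcripts. It was 0.51 when the isoforms of a locus were added up, 0.42 for the mRNA sum and 0.21 for the sum of all transcripts of the locus. At least 1 mouse was listed at 0 for 452 isoforms (17.3%), and 184 were listed at 0 in 1 mouse and at 5 FPKM or more in another mouse of the same group. An exact 0 may be a failed estimate, so values beside a 0 are given mouse by mouse. The isoforms listed at 0 numbered 86, 95 and 105 in RSD mice and 111, 170 and 188 in control mice, which did not overlap (exact permutation test, two-sided, p = 0.1, the smallest that 3 against 3 mice allow). Depth relative to control mouse 1, read from the smallest steps of the values, was 0.907, 0.934 and 0.963 in RSD mice and 1, 0.880 and 0.854 in control mice, and its part in the zeros was not tested.

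The share of the locus held by the kept isoforms had a median of 33.8% in minus-strand loci and 16.1% in plus-strand loci. The noncoding share is the summed FPKM of the kept isoforms divided by the summed FPKM of all transcripts of the locus in both tables. Other lncRNA-table transcripts thus count in the divisor only. With all lncRNA-table transcripts in the numerator the per-mouse median averaged 47.2%, against 30.7% with the kept isoforms. The mean noncoding share over the 6 mice had a median of 32.7% over the 1497 loci, with quartiles of 17.3% and 52.5%, and exceeded 50% in 413 loci (27.6%). The median share per mouse was 30.7%, 29.8% and 31.4% in RSD mice and 29.7%, 31.2% and 31.2% in control mice, a difference of -0.066 points (exact permutation test, two-sided, p = 1). Over plus-strand loci alone the per-mouse medians were 15.1%, 14.1% and 13.9% in RSD mice and 11.9%, 20.03% and 15.9% in control mice. Within a locus the share moved by a median of 23.8 points between the lowest and the highest mouse, and by more than 50 points in 337 loci.

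**Figure D2:**
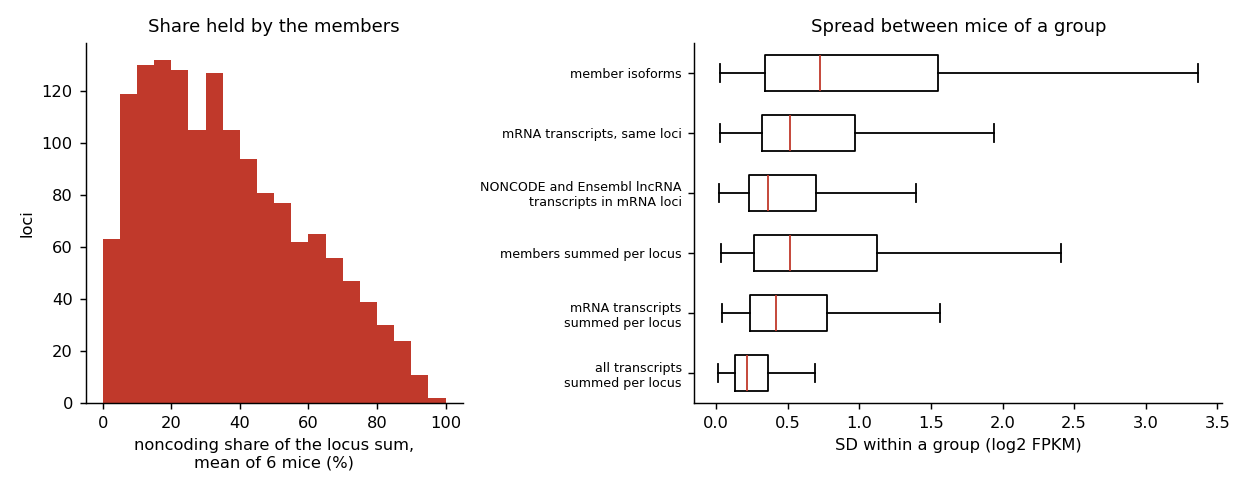
Left, number of loci by noncoding share of the locus sum (mean of 6 mice, bins of 5 points), with a median of 32.7%. Right, SD between mice of a group on the log2 scale for single transcripts and for sums per locus (box, quartiles, red line, median, whiskers, up to 1.5 box lengths), lowest for the sum of all transcripts of a locus at 0.21.

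Loci differed widely in share. Among loci with a mean sum of at least 10 FPKM and at least 1 FPKM of mRNA, the share was highest in Cuedc2 at 95.7%, Nrbp2 at 92.9%, Rbfox2, a neuronal splicing regulator, at 92.6%, Cabin1, an inhibitor of calcineurin, at 92.4% and Supt5, an elongation factor of RNA polymerase II, at 91.2%. It was lowest in Robo2, a receptor for Slit guidance cues, at 0.431%, the stress granule gene G3bp2 at 0.789%, the planar polarity gene Prickle2 at 0.811%, Phactr1 at 0.903% and Arl6ip1 at 0.977%. A low share of kept isoforms need not mean little noncoding output, since other lncRNA-table transcripts count in the locus sum only. The Robo2 locus held 14 of these, and of its mean sum of 118 FPKM the mRNA made up 19.4 FPKM and the kept isoforms 0.513 FPKM. In Cuedc2 the share was 96.6%, 94.9% and 97.3% in RSD mice and 95.9%, 95.1% and 94.3% in control mice, so that it hardly varied. A single isoform was kept in 978 loci and 5 or more in 60. The Snrpn locus, whose long imprinted transcripts run through the Prader-Willi region, held 71 isoforms, with shares of 73.8%, 65.5% and 63.9% in RSD mice and 69.2%, 72.0% and 60.3% in control mice. Ank2, an axonal ankyrin, held 17 isoforms and was steady at 64.9%, 67.1% and 64.0% in RSD mice and 66.0%, 62.9% and 64.1% in control mice. Dpp10, a subunit of Kv4 channels, held 17 isoforms at a mean share of 7.23%, and the active zone gene Rims1 held 13 at 74.9%. The Dpp10 locus also held 73 other lncRNA transcripts. Of its mean sum of 835 FPKM the kept isoforms made up 60.4 FPKM and the mRNA 13.4 FPKM.

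Between RSD and control mice, single isoforms of Ncl, Ppp6r1, Wnt7b, Pex5l and Zbtb16 were higher, and those of Etv5, Cadps2, Reln and Synj1 lower. Summed over all members the level was 13951, 15532 and 12987 FPKM in RSD mice and 12970, 11603 and 13771 FPKM in control mice, a ratio of 1.11 (exact permutation test, two-sided, p = 0.2). With limma on log2(FPKM + 0.1) over 23640 lncRNA-table transcripts, 6 isoforms were higher and 4 lower in RSD mice at a Benjamini-Hochberg adjusted p under 0.05, or 0.229% and 0.153% of the members, where 0.0465% and 0.055% of all transcripts fitted were called in these directions (0.102% in both, and 0.0666% of the transcripts that are not members). Of these 10, 8 reached the minimum in 1 group only, which means that they entered the set through the group in which they were high, and their number is a description only. All 10 lay on the minus strand. The threshold used by the study, a log2 fold change of 1 or more either way with an unadjusted p of at most 0.05, was met by 116 higher (4.43%) and 71 lower (2.71%) isoforms, where 1.07% and 1.37% of all transcripts fitted met it (0.647% and 1.2% of those that are not members). An unadjusted p of at most 0.05 was found for 251 isoforms (9.58%, against 5.28% of all). All 3 RSD mice lay above all 3 control mice for 192 isoforms (7.33%, against 3.49% of the lncRNA table) and below them for 143 (5.46%, against 7.49%).

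Of the isoforms that rose, MERGE.1341.5 belongs to Ncl, which encodes nucleolin, a protein of ribosome biogenesis (chr1:86350564-86358696). It had 5.68, 5.33 and 5.74 FPKM in RSD mice, against 0, 0.00687 and 0 FPKM in control mice (adjusted p = 0.00058, limma). MERGE.38869.4 of Ppp6r1, a regulatory subunit of protein phosphatase 6 whose locus also holds Tmem86b (chr7:4628406-4640163), had 4.11, 5.53 and 7.77 FPKM in RSD mice, against 0.00997, 0 and 0 FPKM in control mice (adjusted p = 0.00259). MERGE.15745.4 of Wnt7b, a secreted Wnt ligand (chr15:85535462-85581468), had 4.09, 3.15 and 4.71 FPKM in RSD mice and was listed at 0 in every control mouse (adjusted p = 0.00262). These 3 were separated from control mice by several FPKM. MERGE.27539.21 of Pex5l, an auxiliary subunit of HCN channels (chr3:32954337-33143076), had 2.05, 4.85 and 3.62 FPKM in RSD mice, against 0.00959, 0.0175 and 0 FPKM in control mice (adjusted p = 0.0132). MERGE.45931.1 of Zbtb16, a zinc finger transcription factor gene induced by glucocorticoids (chr9:48651572-48787431), had 1.96, 1.78 and 2.34 FPKM in RSD mice and was listed at 0 in every control mouse (adjusted p = 0.0141). Because the control values were at or near 0, no fold change is given for these 5. Another Zbtb16 isoform, MERGE.45931.7, went the other way. It had 0, 0.134 and 0.353 FPKM in RSD mice and 1.66, 2.58 and 2.24 FPKM in control mice (unadjusted p = 0.000896, adjusted p = 0.321, limma).

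Of the isoforms that fell, MERGE.16709.3 of Etv5, an ETS transcription factor (chr16:22381310-22438441), had 0.655, 0.749 and 0.968 FPKM in RSD mice, against 11.4, 15.6 and 19.3 FPKM in control mice. Its log2 fold change was -4.11 ± 0.26 (SE, adjusted p = 0.00605). MERGE.36317.1 of Cadps2, a priming factor of dense-core vesicles (chr6:23262675-23839300), had 0.065, 0.0239 and 0.267 FPKM in RSD mice, against 8.87, 7.11 and 8.73 FPKM in control mice (log2 fold change -5.41 ± 0.42, SE, adjusted p = 0.0132). MERGE.33238.3 of Reln, the extracellular glycoprotein reelin (chr5:21884895-22010264), was listed at 0 in every RSD mouse and had 10.3, 3.30 and 8.02 FPKM in control mice (adjusted p = 0.0117). MERGE.17893.2 of Synj1, the phosphoinositide phosphatase of synaptic vesicle endocytosis (chr16:90936101-91011024), stayed well expressed in both groups. It had 2.74, 2.96 and 1.36 FPKM in RSD mice, against 20.2, 18.4 and 19.9 FPKM in control mice (log2 fold change -3.07 ± 0.31, SE, adjusted p = 0.0437). The Synj1 call was lost under 10 of 15 alternatives (adjusted p between 0.0164 and 0.277), and leaving out single RSD mice took away those of Wnt7b, Pex5l, Zbtb16, Reln and Cadps2 in at least 1 case. Without control mouse 1 the calls numbered 34, of which 29 were higher.

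**Figure D3:**
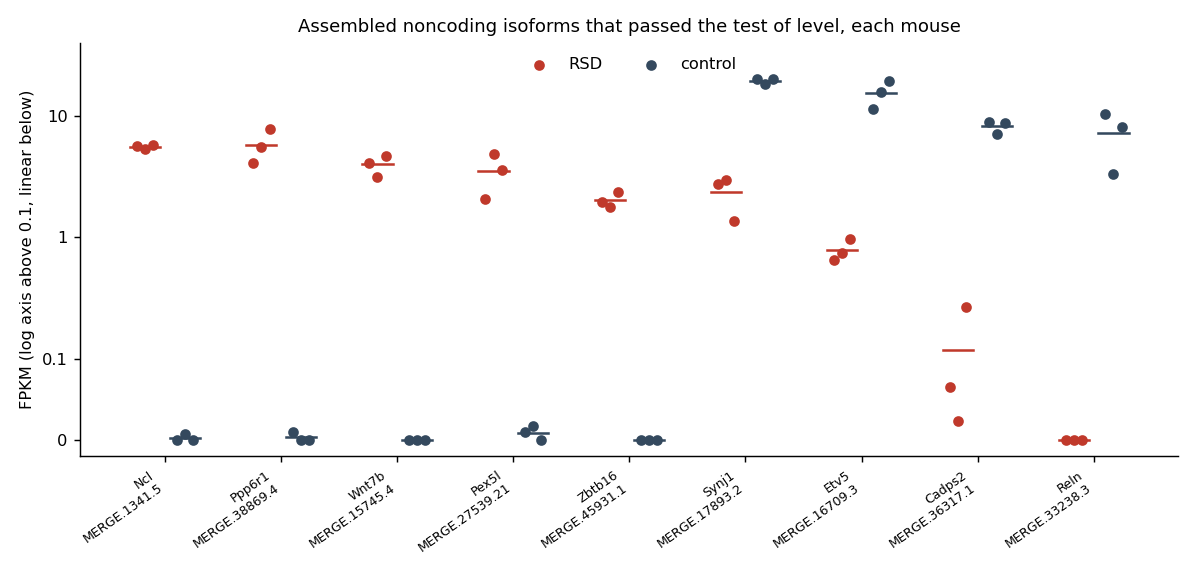
FPKM of 9 of the 10 isoforms with an adjusted p under 0.05, by host gene and identifier, with 1 point per mouse (RSD red, control dark) and a line at the group mean; the axis is logarithmic above 0.1 and linear below. For the 5 isoforms on the left every control mouse is at or below 0.0175 FPKM, and on the right the Synj1 and Etv5 isoforms are detected in all 6 mice.

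Taken against its own locus, 7 isoforms gained and 3 lost share. All of them except those of Synj1 and Lrrc7 reached the minimum in 1 group only, so their number is a description only. With limma on the log2 share over 6330 lncRNA-table transcripts of mRNA loci, 0.284% of those fitted were called at an adjusted p under 0.05 (0.174% higher and 0.111% lower), against 0.267% and 0.115% of the members. The study threshold for share was met by 77 members in the higher direction (2.94%) and 58 in the lower (2.21%), against 1.66% and 1.66% of those fitted. The isoforms of Ncl, Ppp6r1, Wnt7b, Zbtb16, Reln, Cadps2 and Synj1 passed in both level and share. MERGE.25558.3 of Gabpb1, a subunit of the GABP transcription factor, had 2.94, 1.32 and 1.23 FPKM in RSD mice and was listed at 0 in every control mouse (share adjusted p = 0.00602, level adjusted p = 0.0797). MERGE.20730.12 of Celf4, a neuronal RNA-binding protein gene, had 4.15, 3.07 and 1.20 FPKM in RSD mice and was listed at 0 in every control mouse (share adjusted p = 0.0213, level adjusted p = 0.0604). MERGE.29997.1 of Lrrc7, the postsynaptic scaffold densin, had 18.5, 16.96 and 19.0 FPKM in RSD mice, against 8.15, 11.2 and 10.4 FPKM in control mice. Its share rose by 1.82 ± 0.14 on the log2 scale (SE, adjusted p = 0.00952), with a level change of 0.88 ± 0.19 that did not pass (adjusted p = 0.579). Leaving out RSD mouse 2 ended 9 of these 10 share calls, all but that of Ncl. The Celf4 call was lost under 7 of 14 alternatives and the Cadps2 call under 6 of 14.

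With all kept isoforms of a locus added up, the noncoding share was higher in RSD mice in 4 loci and lower in 1 at an adjusted p under 0.05 (0.334% of the 1497 loci, 0.267% and 0.0668% by direction), and the study threshold was met by 40 loci in the higher direction (2.67%) and 41 in the lower (2.74%). In Ncl the share was 28.1%, 28.5% and 28.3% in RSD mice, against 0%, 0.0389% and 0% in control mice (adjusted p = 0.0124, limma). In Gabpb1 it was 37.7%, 26.5% and 24.0% in RSD mice and 0% in every control mouse (adjusted p = 0.019), and in Ppp6r1 it was 10.98%, 16.1% and 16.3% in RSD mice, against 0.0393%, 0% and 0% in control mice (adjusted p = 0.0253). In Cadps2 it was 1.37%, 0.744% and 2.85% in RSD mice, against 93.5%, 78.2% and 63.3% in control mice (log2 ratio change -7.70 ± 0.85, SE, adjusted p = 0.0468), a call lost under 10 of 16 alternatives (adjusted p between 0.0288 and 0.30). In Lrrc7 it was 77.1%, 76.7% and 78.1% in RSD mice, against 27.6%, 29.1% and 29.3% in control mice (log2 ratio change 3.07 ± 0.25, SE, adjusted p = 0.019). The Lrrc7 value turned on a transcript that is not a member, NONMMUT114518.1 from NONCODE, which had 0.178, 0.169 and 0.159 FPKM in RSD mice, against 30.3, 40.5 and 38.5 FPKM in control mice. With NONCODE transcripts counted as noncoding too, the Lrrc7 change was -0.93 and did not pass. The locus calls numbered 24 without control mouse 1 and 0 without RSD mouse 1 or control mouse 2. In each called locus except Lrrc7 the kept isoforms reached the minimum in 1 group only, so the number of locus calls too is a description only.

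Isoforms at the study threshold were set beside the sums of their loci. For these 187 isoforms the log2 fold change had a median size of 2.44, where all 2620 members had 0.45. The sum of all transcripts of their loci had 0.27, where all 1497 loci had 0.18. The 187 were chosen by the size of their own change and the locus sums were not, so 2.44 and 0.27 cannot be compared directly. In 6 of the 187 the locus sum met the same threshold in the same direction, where 1.51% of all mRNA loci met it higher and 0.39% lower. The mRNA sum met it in the opposite direction for 17 of the 187 and in the same direction for 6, where 1.84% of all mRNA loci met it higher and 0.542% lower. At an adjusted p under 0.05 the mRNA sum was called in 2 loci with members, Tns3 higher and Phf5a lower, where 0.0667% of mRNA loci were called (0.05% higher and 0.0167% lower). In 30 isoforms of 27 loci, isoform and mRNA sum both had an unadjusted p of at most 0.05 with opposite signs (1.15% of the members), and in 16 isoforms of 14 loci with the same sign (0.611%). Among 3710 other lncRNA-table transcripts of mRNA loci, 11 (0.296%) had opposite signs and 19 (0.512%) the same sign, and the difference from the members was not tested. Of the 30 isoforms, 10 were higher and 20 lower in RSD mice. Isoform and mRNA share a locus sum and a split of the same fragments, and the part of that split in these opposite changes was not tested.

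**Figure D4:**
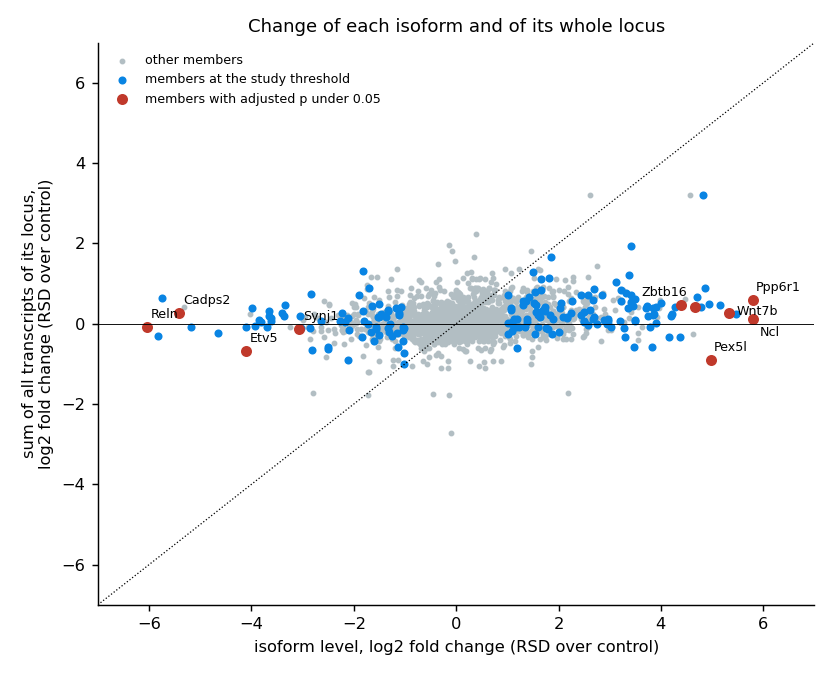
Log2 fold change (RSD over control) of each of the 2620 isoforms on the x axis and of the sum of all transcripts of its locus on the y axis, with a dotted line where both are equal. Isoforms at the study threshold (blue) and those with an adjusted p under 0.05 (red, 9 of 10 named by host) were chosen by their change on the x axis. At the study threshold the median size was 2.44 on the x axis and 0.27 on the y axis. The x position of isoforms at or near 0 FPKM in a group depends on the 0.1 FPKM added before the logarithm.

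In Cadps2 isoform and mRNA differed in opposite directions. Beside its lower isoform, its mRNA sum was 19.2, 16.8 and 18.3 FPKM in RSD mice, against 1.18, 2.76 and 5.65 FPKM in control mice (log2 fold change 2.72, unadjusted p = 0.00225, adjusted p = 0.409). The mRNA transcript ENSMUST00000018122 had 17.5, 15.4 and 14.4 FPKM in RSD mice and was listed at 0 in every control mouse. The locus sum was 19.4, 16.9 and 18.8 FPKM in RSD mice and 18.1, 12.7 and 15.4 FPKM in control mice, and the groups overlapped. In Etv5 the mRNA sum was 6.79, 7.89 and 3.04 FPKM in RSD mice, against 0.463, 0.151 and 0.00406 FPKM in control mice (unadjusted p = 0.0007, adjusted p = 0.259). In Gtf2i, the gene of the transcription factor TFII-I, the noncoding share was 17.6%, 14.7% and 15.1% in RSD mice and 67.7%, 47.3% and 53.0% in control mice (adjusted p = 0.111). The Gtf2i mRNA sum was 37.4, 49.5 and 47.9 FPKM in RSD mice, against 16.0, 23.6 and 21.1 FPKM in control mice.

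Tns3, a focal adhesion gene, and Slc38a7, an amino acid transporter gene, had the same order. The mRNA sum of Tns3 was 4.07, 7.46 and 3.78 FPKM in RSD mice, against 0.116, 0.175 and 0.286 FPKM in control mice (log2 fold change 4.13, adjusted p = 0.0488), a call lost under 11 of 13 alternatives (adjusted p between 0.0353 and 0.288). Its isoform MERGE.5758.2 had 0.0058, 1.04 and 0.00362 FPKM in RSD mice and 4.72, 1.43 and 4.64 FPKM in control mice (adjusted p = 0.882). MERGE.43969.3 of Slc38a7 had 0.114, 0.00997 and 0.0194 FPKM in RSD mice, against 2.98, 0.65 and 2.33 FPKM in control mice (adjusted p = 0.328).

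In the other direction, the Ncl mRNA sum was 14.5, 13.4 and 14.5 FPKM in RSD mice, against 20.1, 17.7 and 17.1 FPKM in control mice (log2 fold change -0.37, unadjusted p = 0.0163, adjusted p = 0.526), while the locus sum was 20.2, 18.7 and 20.3 FPKM in RSD mice and 20.1, 17.7 and 17.1 FPKM in control mice. In Hmgb1, a chromatin protein gene, MERGE.36042.1 had 7.24, 6.99 and 7.25 FPKM in RSD mice and 3.91, 0 and 0.295 FPKM in control mice. The Hmgb1 mRNA sum was 0.684, 1.28 and 1.15 FPKM in RSD mice, against 3.46, 6.44 and 6.72 FPKM in control mice (unadjusted p = 0.000647, adjusted p = 0.259), and the isoform had an adjusted p of 0.927. MERGE.43656.3 of Cc2d1a, a signaling scaffold gene, had 8.07, 8.96 and 6.70 FPKM in RSD mice and 3.90, 0.152 and 0.25 FPKM in control mice, so that control mouse 1 lay between the others. The Cc2d1a mRNA sum was 1.27, 1.10 and 1.02 FPKM in RSD mice, against 3.69, 4.53 and 5.24 FPKM in control mice (log2 fold change -1.89, adjusted p = 0.0755). Without control mouse 1 the isoform MERGE.43656.3 had an adjusted p of 0.00442, against 0.91 with all 6 mice. In Camk2g, a subunit of CaMKII, MERGE.12733.7 had 33.3, 39.97 and 9.24 FPKM in RSD mice and 4.82, 4.59 and 5.91 FPKM in control mice (adjusted p = 0.827).

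Phf5a, a component of the SF3b splicing complex, differed from these loci. Its mRNA was 0.0707, 0.0171 and 0.0331 FPKM in RSD mice, against 6.73, 8.79 and 7.07 FPKM in control mice (log2 fold change -5.77, adjusted p = 0.00295). Its isoform MERGE.15674.1 had 1.02, 0.714 and 2.70 FPKM in RSD mice and 3.05, 0.719 and 1.14 FPKM in control mice (adjusted p = 0.995), and the groups overlapped. The noncoding share was 93.5%, 97.7% and 98.8% in RSD mice, against 31.2%, 7.57% and 13.8% in control mice, and did not pass (adjusted p = 0.111, limma). This difference in share thus rested on the mRNA. The locus sum was 1.09, 0.731 and 2.74 FPKM in RSD mice and 9.77, 9.51 and 8.20 FPKM in control mice. In Elfn2, a postsynaptic adhesion gene, the share was 60.4%, 57.9% and 74.3% in RSD mice and 92.6%, 97.2% and 96.7% in control mice (adjusted p = 0.142). The Elfn2 kept isoforms summed to 13.3, 12.4 and 12.8 FPKM in RSD mice and 12.1, 12.7 and 12.2 FPKM in control mice. The mRNA sum was 2.24, 1.80 and 4.44 FPKM in RSD mice and 0.962, 0.367 and 0 FPKM in control mice. Another assembled isoform, MERGE.15438.2, missed the minimum and counted in the locus sum only. It had 6.52, 7.18 and 0 FPKM in RSD mice and 0, 0 and 0.422 FPKM in control mice. In Ptpru, a receptor tyrosine phosphatase gene, the share was 15.7%, 17.6% and 17.2% in RSD mice and 41.3%, 36.9% and 45.6% in control mice (adjusted p = 0.191).

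**Figure D5:**
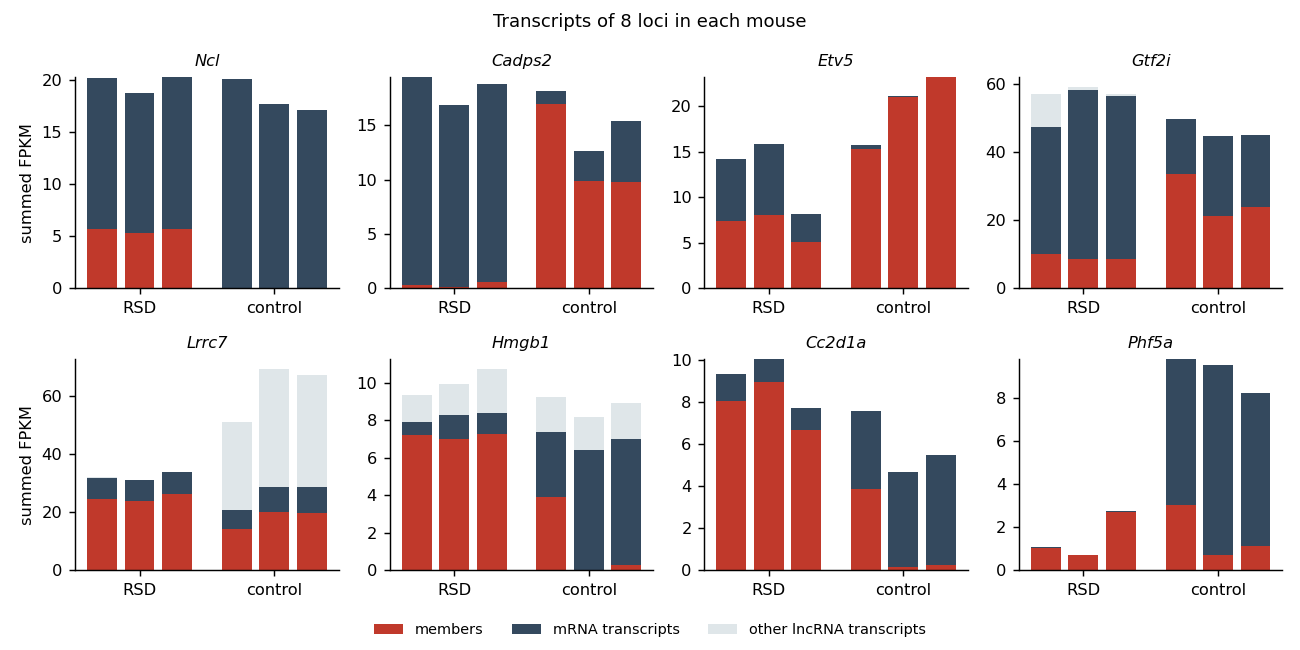
Summed FPKM per mouse (3 RSD bars, then 3 control bars) in 8 loci, split into kept assembled isoforms (red), mRNA transcripts (dark) and other lncRNA transcripts (light). In Cadps2 the isoforms make up 0.744% to 2.85% in RSD mice and 63.3% to 93.5% in control mice, while in Lrrc7 the light part, a NONCODE transcript, carries the difference.

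Host genes were grouped by function, and the counts at the study threshold in each list stand beside 4.43% higher and 2.71% lower over all members, and 1.07% and 1.37% over the lncRNA table. Of 44 genes for glutamate receptors and postsynaptic scaffolds in the mRNA table, 17 hosted 34 isoforms. Of these, 0 met the study threshold in the higher direction and 1 in the lower. Their median log2 fold change was -0.03, against 0.06 for all members and -0.09 for all transcripts fitted. Gria2, an AMPA receptor subunit, carried MERGE.28292.7 with 10.9, 12.5 and 14.5 FPKM in RSD mice and 9.97, 16.8 and 12.6 FPKM in control mice. Of 39 synaptic adhesion genes 18 hosted 57 isoforms, with 2 higher and 1 lower at the study threshold and a median of -0.21. In this group MERGE.17331.7 of Cadm2 had 41.4, 40.9 and 0 FPKM in RSD mice and 0, 7.56 and 11.1 FPKM in control mice, and was thus high in RSD mice 1 and 2 only. Of 44 presynaptic release genes 14 hosted 36 isoforms, with 0 higher and 3 lower (median 0.36), among them the Synj1 isoform. Syn1, a vesicle phosphoprotein gene, had MERGE.47970.2 at 19.3, 22.5 and 38.9 FPKM in RSD mice and 31.6, 32.1 and 32.9 FPKM in control mice.

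Of 22 inhibitory synapse genes 5 hosted 10 isoforms, of which 3 were higher and 0 lower at the study threshold (median 0.40), where 4.43% and 2.71% of all members and 1.07% and 1.37% of the lncRNA table met it. MERGE.48241.2 of Gabra3, a GABA-A receptor subunit, was among the steadiest, with 41.3, 43.3 and 43.1 FPKM in RSD mice and 40.3, 39.6 and 41.1 FPKM in control mice, and made up 86.7% of its locus. Of 46 voltage-gated channel genes and their subunits 16 hosted 36 isoforms, with 3 higher, the Pex5l isoform among them, and 1 lower (median -0.04). Of 42 neuronal kinase genes 10 hosted 22 isoforms, with 2 higher and 1 lower (median -0.17), and MERGE.5718.3 of Camk2b had 45.4, 47.0 and 61.4 FPKM in RSD mice and 40.3, 8.97 and 38.3 FPKM in control mice.

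Of the 12 lists, that of splicing factors held the most isoforms. Of 74 splicing factor and hnRNP genes 32 hosted 94 isoforms, with 2 higher and 2 lower at the study threshold (median 0.06), where 4.43% of all members were higher and 2.71% lower (1.07% and 1.37% of the lncRNA table). MERGE.781.3 of Sf3b1, an SF3b subunit, had 21.2, 21.4 and 24.9 FPKM in RSD mice and 4.94, 23.0 and 21.5 FPKM in control mice, while MERGE.11462.9 of Hnrnpk had 24.3, 31.2 and 25.8 FPKM in RSD mice and 37.8, 19.8 and 19.96 FPKM in control mice. Of 68 chromatin regulator genes 13 hosted 38 isoforms, with 1 higher and 0 lower (median 0.06). Of 45 cytoskeleton and transport genes 13 hosted 41 isoforms, with 1 higher and 0 lower (median -0.06).

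Of 25 myelin and oligodendrocyte genes 5 hosted 9 isoforms, of which 2 were higher and 0 lower at the study threshold (median 0.64), and 4 had all RSD mice above all control mice. Over all members 4.43% were higher at that threshold and 7.33% had no overlap in this direction, against 1.07% and 3.49% of the lncRNA table. MERGE.39471.4 of Mag, a myelin adhesion gene, had 7.71, 7.86 and 4.81 FPKM in RSD mice, against 2.67, 2.99 and 2.31 FPKM in control mice (log2 fold change 1.30 ± 0.25, SE, adjusted p = 0.496). The summed mRNA level of 3 oligodendrocyte markers (Mbp, Mog and Mobp) was between 106 and 130 FPKM in RSD mice and between 65.9 and 90.9 FPKM in control mice. The groups did not overlap, more such cells and more RNA per cell cannot be told apart in bulk tissue, and the part of this difference in the Mag value was not tested. Of 23 astrocyte genes 4 hosted 8 isoforms with 0 at the study threshold (median 0.20). Of 34 immediate early and stress response genes 4 hosted 7 isoforms, with 1 higher and 1 lower (median 0.93). Both belong to Zbtb16, MERGE.45931.1 being higher and MERGE.45931.7 lower. MERGE.21071.2 of Nr3c1, the glucocorticoid receptor, had 5.83, 5.15 and 5.199 FPKM in RSD mice and 7.03, 1.88 and 5.19 FPKM in control mice (adjusted p = 0.946). MERGE.38483.2 of Fkbp4, a cochaperone of steroid receptors, had 13.8, 6.17 and 4.78 FPKM in RSD mice and 6.16, 2.85 and 3.21 FPKM in control mice.

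Of the assembled isoforms that the study lists with a target gene in its text and main tables of selected pairs, 7 were members, and 6 of them are described here. MERGE.16056.9 of Kmt2d, a histone H3 lysine methyltransferase, had 6.60, 8.79 and 3.14 FPKM in RSD mice, against 0.456, 0.0334 and 0.256 FPKM in control mice (log2 fold change 4.28 ± 0.62, SE, adjusted p = 0.182). MERGE.32926.1 of Mib2, a ubiquitin ligase gene, had 2.24, 1.79 and 1.17 FPKM in RSD mice, against 0.238, 0.251 and 0.32 FPKM in control mice (log2 fold change 2.27 ± 0.31, SE, adjusted p = 0.149). In both the adjusted p over all transcripts fitted missed 0.05. MERGE.19055.3 of Mtch1, a mitochondrial carrier homolog gene, had 34.4, 36.5 and 34.4 FPKM in RSD mice and 4.59, 10.5 and 25.9 FPKM in control mice (adjusted p = 0.927). MERGE.17177.9 of the adhesion gene Pvrl3 had 1.15, 1.11 and 1.22 FPKM in RSD mice and 1.45, 3.49 and 2.84 FPKM in control mice, and MERGE.41589.1 of Gsg1l, an auxiliary subunit of AMPA receptors, had 0.335, 0.234 and 0.109 FPKM in RSD mice and 0.502, 0.629 and 0.93 FPKM in control mice. Of these 6, only the Cadps2 isoform passed the adjusted test of level. In all 6 the groups did not overlap, but the study predicted targets for lncRNAs that it had called in these same mice. The Kmt2d and Mib2 isoforms reached the minimum in RSD mice only, and those of Gsg1l and Cadps2 in control mice only.

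Across the isoforms, control mouse 1 stood nearer to RSD mice than to the other control mice. Over the 2620 members the correlation of log2 levels was 0.47, 0.45 and 0.45 between control mouse 1 and RSD mice 1, 2 and 3, and 0.35 and 0.36 between it and control mice 2 and 3, whose correlation with each other was 0.48. RSD mouse 3 in turn had 0.44 and 0.47 with control mice 2 and 3. These correlations run over transcripts that share loci and libraries and describe likeness only. Defining markers of cortical neurons and glia were detected in every mouse, as sums over marker mRNAs between 355 and 381 FPKM in RSD mice and 44.1 and 360 FPKM in control mice for excitatory neurons, and markers of choroid plexus (2 of 3 measured) and olfactory bulb (1 of 3 measured) reached at most 3.75 FPKM. Striatal neuron markers (3 of 4 measured) summed to between 30.1 and 33.7 FPKM in RSD mice and between 15.8 and 37.1 FPKM in control mice, and blood markers to between 69.9 and 197 FPKM in RSD mice and between 64.6 and 173 FPKM in control mice.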

How the data were processed

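The authors sequenced ribosomal-RNA-depleted, strand-preserving libraries and deposited transcript tables with FPKM per mouse. Bowtie 0.12.2 and mm9 are given in the processing notes of the submitters, and the study describes assembly and expression with the Cufflinks suite. Positions matched GRCm38 genes and are printed as the files give them. Columns of fold changes and p-values of the authors in the deposited tables were not used. Absolute depth in reads is unknown, so no counting interval is given.

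Values were tested with limma 3.58.1 in R 4.3.3 (moderated, with trend) on log2(FPKM + 0.1), all 6 mice, RSD minus control, with Benjamini-Hochberg adjustment over all transcripts or loci fitted. Per-mouse summaries were compared by exact permutation. Fold changes on this scale understate changes of low transcripts. The fits were tested on simulated data. Members and lists were chosen with earlier results of these data known. Named were isoforms and loci called at an adjusted p under 0.05 (or the 5 with the smallest p), the 10 highest isoforms, loci with the most members and extreme shares, isoforms that the study paired with target genes, up to 3 isoforms per host gene list, and up to 5 loci per direction with opposite isoform and mRNA changes. Alternatives were the pseudocount, filter, trend, scaling, replicate block, definition of share, and leaving out each mouse. Plus-strand members alone, members outside the mitochondrial genome and locus sums were added after seeing the data. Results for some genes, including 1 isoform that was higher in RSD mice, are not reported here.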

Additional observations from a re-analysis of the deposited data

How the results depend on the processing

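The number of members called at an adjusted p under 0.05 depended on the processing more than the number at the study threshold. For isoform level, 10 calls became 4 with a pseudocount of 0.01, 5 with a filter of 1 FPKM and 0 among plus-strand members (8 of 165 at the study threshold and 14 at an unadjusted p of at most 0.05). For the locus share, 5 calls became 3 with a pseudocount of 0.01 and 3 with all lncRNA-table transcripts in the numerator, where the Lrrc7 change was reversed at -0.93. For the mRNA sum of the loci, 2 calls became 1 (Phf5a, with Tns3 lost) with a pseudocount of 0.01 or 1, a filter of 1 FPKM, median scaling or quantile normalization. With all transcripts of the locus in place of its mRNA, 1 locus was called and 23 met the study threshold, against 59 for the mRNA sum. Counts at the study threshold stayed within 1.5 times of 187, 135, 81 and 59 under every other alternative except leaving out a mouse.

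Leaving out 1 mouse gave 4 to 34 isoform calls, 2 to 42 isoform share calls, 0 to 24 locus share calls and 1 to 18 mRNA sum calls, and 150 to 257, 109 to 216, 64 to 128 and 47 to 116 at the study threshold. The highest value of each range came without control mouse 1. The median share differed by -0.59 to 0.35 points and by -1.57 points over plus-strand loci, and the ratio of summed FPKM was 1.05 to 1.15. All 10 isoforms called in level kept their direction under each of 15 alternatives. In all 10 the groups did not overlap, so leaving out a mouse could not have reversed a direction.

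Deviations from the group mean had correlations of 0.060, -0.050 and 0.079 between RSD and control mice with the same number, over 23640 transcripts. Between mice with different numbers they ran from -0.118 to 0.061. The labels do not say what the numbers stand for, and whether they pair the mice cannot be told from these values. With the replicate block 0 isoforms, isoform shares, locus shares and mRNA sums were called by limma, with 189 isoforms higher and 119 lower at an unadjusted p of at most 0.05. With 3 mice a group and no read counts, low isoforms and those listed at 0 carry the least information.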
